A study of Mus musculus with 24 samples.

Results

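In mouse liver, 3319 places were bounded by a pair of Rev-erbα ChIP-exo borders lying 24 to 26 bp apart, and 1634 of them (49.2%) held the core recognition sequence of the liver factor HNF6. ChIP-exo trims crosslinked DNA with exonucleases until the bound protein stops them, so a protein-covered stretch ends in a plus-strand border on its left and a minus-strand border on its right. Each plus-strand border of the deposited list on chromosomes 1 to 19 and X was joined to the next minus-strand border downstream, and the members were chosen by the distance between the border bases. They made up 12.5% of the 26535 pairs that were 5 to 60 bp apart. The series held 1 border list for its 2 ChIP-exo libraries of wild-type C57BL/6J liver taken at zeitgeber time 10 (10 h after lights on), and how they were combined was not stated. It was compared with the Rev-erbα ChIP-seq peak lists of epididymal white adipose tissue (eWAT, 2 libraries, 9016 peaks) and of brain, from its ventral tegmental area (1 library, 10687 peaks), both also from wild-type C57BL/6J mice at zeitgeber time 10. No allele or treatment differs between these groups, per the labels. The other 19 of the 24 samples were not analysed here.

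Rev-erbα (gene Nr1d1) is a heme-binding nuclear receptor that represses transcription with the corepressor NCoR and the deacetylase HDAC3, and its own level rises and falls with the circadian clock. It binds DNA directly at an AT-rich sequence followed by AGGTCA, and it can also be brought to chromatin by other factors, among them HNF6 in liver. HNF6 (gene Onecut1) is a transcription factor with a cut domain and a homeodomain, abundant in hepatocytes and bile duct cells, whose recognition sequence centres on ATTGAT or ATCGAT.

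The HNF6 core sat near the middle of the strongest members. The sequences below are the mm9 plus strand from 10 bases before the plus border to 10 bases after the minus border, and the capitals mark ATTGAT or ATCGAT in either orientation. The first 8 are the members with a core that had the highest pair signal, and Cry1 is the clock gene whose member held a core.
Ppara: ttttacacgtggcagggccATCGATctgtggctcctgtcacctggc
Mtss1: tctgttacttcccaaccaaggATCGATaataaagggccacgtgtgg
Ndrg1: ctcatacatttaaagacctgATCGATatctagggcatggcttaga
St6gal1: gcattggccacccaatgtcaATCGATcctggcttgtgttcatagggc
Cbs: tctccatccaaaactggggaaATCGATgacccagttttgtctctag
Adcy1: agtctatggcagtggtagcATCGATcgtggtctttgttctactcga
Hlx: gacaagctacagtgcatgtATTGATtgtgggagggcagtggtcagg
Ormdl3: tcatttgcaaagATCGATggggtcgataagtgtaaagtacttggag
Cry1: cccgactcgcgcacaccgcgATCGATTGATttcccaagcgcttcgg
In 7 of these 9 members the only core began 9 to 11 bases from the plus border, Ormdl3 had its core 2 bases from that border, and Cry1 held 2 overlapping cores.

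The 4 highest members without a core among those named by rule (the 15 highest of all and the highest few of each gene list), and the coreless members of the clock genes, are shown for contrast, with the E-box CACGTG in capitals. The E-box was not capitalised in the core members above, of which Ppara and Mtss1 also held CACGTG. An E-box is the palindromic site of the clock activators CLOCK and BMAL1 and of other basic helix-loop-helix factors such as USF1 and MYC.
Nr1d1: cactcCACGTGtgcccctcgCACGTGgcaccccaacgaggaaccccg
Gys2: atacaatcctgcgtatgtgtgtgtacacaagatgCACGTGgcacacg
Por: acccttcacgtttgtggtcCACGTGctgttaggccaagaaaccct
Ppp1r3c: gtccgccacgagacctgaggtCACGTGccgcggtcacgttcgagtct
Csnk1d: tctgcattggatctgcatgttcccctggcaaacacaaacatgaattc
Hlf: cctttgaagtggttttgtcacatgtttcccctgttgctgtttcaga
Dbp: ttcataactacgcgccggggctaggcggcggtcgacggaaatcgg
The first 4 all held CACGTG. They are not the strongest 4 of all members without a core: down to the Ppp1r3c member (rank 69) there were 10, of which 7 held CACGTG and 3 neither motif. Of the clock genes shown here, Nr1d1 held CACGTG and Csnk1d, Hlf and Dbp held neither motif. The member listed under Dbp lay 7444 bp from a Dbp start but nearer to a start of Rpl18.

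Spacing peaked sharply. There were 895 pairs at 24 bp, 1562 at 25 bp and 862 at 26 bp, and just outside the limits 639 at 23 bp and 595 at 27 bp. The median over spacings of 14 to 21 and 30 to 40 bp was 446 pairs (range 384 to 505), so 25 bp was 3.5-fold above it. Because spacing chose the members, these counts are a description. Of the members, 2990 (90.1%) were mutual, meaning that the minus border also had that plus border as its nearest upstream partner. Only 88 lay within 200 bp of another member, 37 had a pair 28 to 30 bp apart within 100 bp, and no member repeated the between-border sequence of another.

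**Figure D1:**
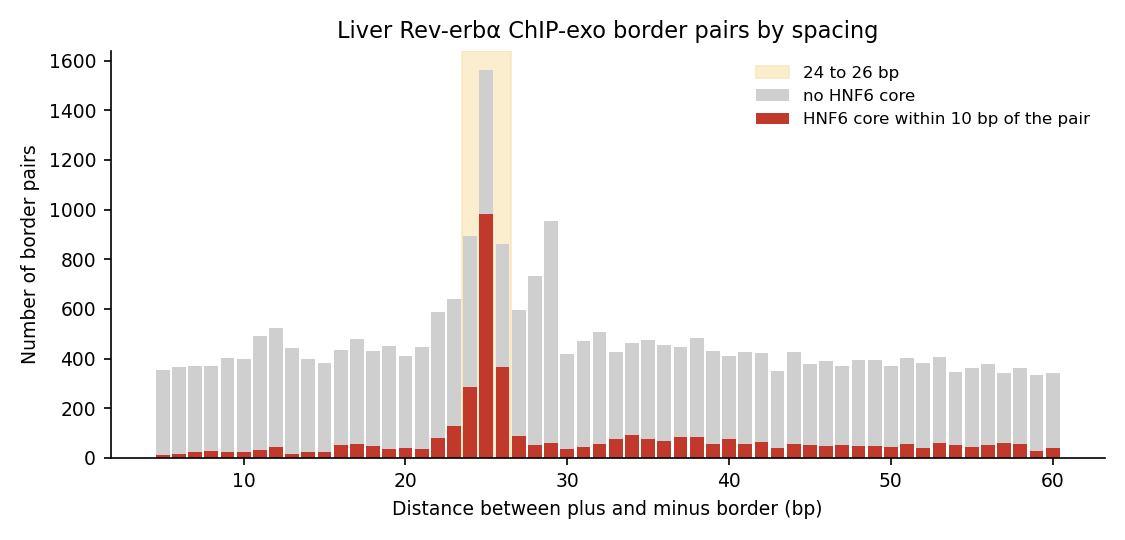
Number of liver border pairs (vertical axis) at each distance between the plus and the minus border in bp (horizontal axis); red is the part with an HNF6 core within 10 bp of the pair, grey the rest, and the shaded band marks 24 to 26 bp. The count reaches 1562 at 25 bp, where 62.8% held a core, while a separate rise at 28 to 30 bp is mostly grey.

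The core was most frequent at these spacings. It was present in 49.2% of the members (1634 of 3319, 95% Wilson interval 47.5 to 50.9), against a background of 11.4% (11 to 11.9) of the 23216 other pairs 5 to 60 bp apart. The difference was 37.8 percentage points (95% Newcombe interval 36 to 39.5). Intervals here cover counting error only, and since neighbouring regions are not independent and PCR reads carry no molecular identifiers they are too narrow by an unknown amount. Pairs 28 to 30 bp apart held the core in 6.87% (5.87 to 8.03) and pairs 11 to 13 bp apart in 6.19% (5.06 to 7.55). In windows of the same width placed 1000 bp to each side of the members the share was 2.02% (1.71 to 2.39). Within the members it was 32.1% at 24 bp, 62.8% at 25 bp and 42.5% at 26 bp, and it was 19.9% at 23 bp and 14.6% at 27 bp. That the members were rich in HNF6 motifs was known when they were chosen, so the shares describe them and are not independent support.

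Of all 2080 six-base words counted with their reverse complements, the word with the largest excess was ATTGAT itself. It occurred in 36.8% of members and 9.73% of other pairs, followed by TATTGA with 29.3% against 7.71%. ATCGAT was present in 13.8% against 2.29%. The longer forms TATTGAT or TATCGAT were found in 31.5% (29.9 to 33.1) of members and 5.72% (5.43 to 6.03) of other pairs. The word that was scarcest relative to the other pairs was CCTGGC, in 4.37% against 7.49%.

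The motifs of other liver and clock factors given next did not share this excess over all other pairs. The forkhead motif TGTTTAC or TGTTTGC of the FOXA pioneer factors was in 3.56% (2.98 to 4.24) of members, and in 5.83% of other pairs, a difference of -2.28 points (-2.93 to -1.53). TTNNGCAA, the motif of the C/EBP factors, was in 8.29% of members and 9.70% of other pairs. It was in 17.8% of pairs 28 to 30 bp apart and 4.33% of pairs 11 to 13 bp apart. TTATGNAA, the D-box of the PAR bZIP factors that include DBP and HLF, was in 1.78% of members and 3.76% of other pairs. In pairs 28 to 30 bp apart its share was 15.5%. In the windows 1000 bp to each side of the members, the FOXA, C/EBP and D-box motifs were in 1.31%, 1.67% and 0.648%, lower shares than in the members. AGGTCA, the core site of nuclear receptors, was in 6.06% (5.29 to 6.92) of members and 8.08% (7.74 to 8.44) of other pairs, and the Rev-erb and ROR element TAGGTCA in 0.723% against 1.20%. The direct repeat of AGGTCA with a spacer of 2 bases, to which Rev-erb dimers bind, was in 0 of 3319 members, which allows a share of up to 0.0904%. It was in only 3 of 23216 other pairs (0.0129%), so this exact repeat was rare in both. All motifs were searched on both strands of the pair with 10 bases added on each side, and some overlap (TAGGTCA holds AGGTCA). In windows of a fixed width of 46 bp the core share was 49.2% in members and 11.3% in other pairs, so window width did not change that contrast. Some smaller differences narrowed there. FOXA was in 3.53% of members against 5.27% of other pairs, AGGTCA in 6.03% against 7.12% and TAGGTCA in 0.693% against 1.06%.

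Within the members the core had a nearly fixed place. A single core was present in 1461 members, ATTGAT in 1054 and ATCGAT in 407, and 173 had 2 or more. ATTGAT lay on the plus strand in 510 members and on the minus strand in 544, so orientation was balanced. Reading each ATTGAT from 5′ to 3′, its start was 9 bases from the border on its 5′ side and its end 11 bases from the border on its 3′ side in 561 of 636 members at 25 bp (88.2%). At 24 bp the commonest place was 9 and 10 bases (109 of 168, 64.9%), and at 26 bp it was 10 and 11 bases (208 of 250, 83.2%). Over all 3 spacings 95.8% (94.4 to 96.9) of these cores started 8 to 10 bases from the 5′ border, and 1613 of 1634 core members (98.7%) had a core wholly between the borders. In the other pairs with 1 ATTGAT, 20.6% (18.7 to 22.6) of 1682 started 9 bases from the 5′ border and 27.7% (25.6 to 29.9) ended 11 bases from the 3′ border, against 66.4% (63.5 to 69.2) and 76.6% (73.9 to 79.0) of members.

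ATCGAT reads the same on both strands and so has no orientation of its own. At 25 bp it nevertheless lay off centre: of 229 members with 1 such core, it was 11 bases from the plus and 9 from the minus border in 105, 9 and 11 in 91, and central, 10 and 10, in 30. The bases next to ATTGAT also differed between members and other pairs with 1 core. The base before it was T in 70.6% of members and 48.5% of other pairs. The base after it was T in 69.2% against 60.6%, and the next base was T in 52.4% against 42.7%. From the fourth to the twelfth base before the core, no base differed by over 5 points.

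**Figure D2:**
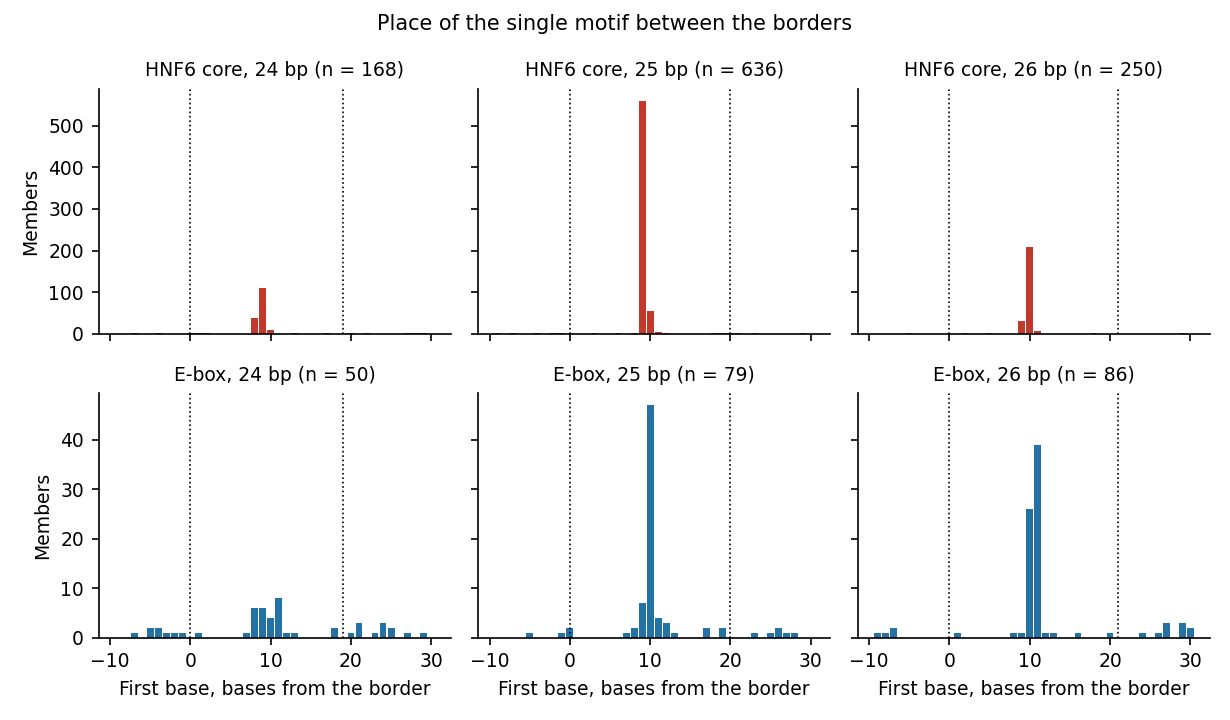
Number of members (vertical axis) by the place of the motif's first base, in bases from the border (horizontal axis), for members with exactly 1 motif at 24, 25 and 26 bp; dotted lines mark a motif that starts at the border and 1 that ends at the opposite border. Red, single ATTGAT read from its own 5′ border; blue, single E-box without an HNF6 core read from the plus border. The core stands 9 bases from the border in 561 of 636 members at 25 bp, and the E-box 10 bases from it in 47 of 79.

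Among the 1685 members without a core, the E-box was the clearest sequence. CACGTG was present in 13.2% of them, against 7.67% of the other pairs without a core. These 222 members (6.69% of all) form the E-box set below, 20 members had both motifs and 1463 (44.1%) had neither. Over all members the E-box share was 7.29%, and it differed from the 7.05% of other pairs by 0.244 points (-0.657 to 1.23). The E-box share of pairs without a core was 8.88% (6.87 to 11.4) at 24 bp, 13.8% (11.2 to 16.8) at 25 bp and 17.7% (14.6 to 21.3) at 26 bp, and outside the limits 9.96% (7.66 to 12.9) at 23 bp, 11.6% (9.11 to 14.7) at 27 bp, 5.23% (3.96 to 6.89) at 29 bp and 12% (9.15 to 15.5) at 35 bp. It also had a preferred place: at 25 bp, 47 of 79 single E-boxes stood exactly in the middle, 10 bases from each border. At 26 bp, where no central place exists, 39 of 86 were 11 bases from the plus and 10 from the minus border and 26 the reverse. At 24 bp the 50 single E-boxes were spread, with at most 8 at any place. Words that differ from the HNF6 core by 1 base were also more frequent in the members without a core: GTCGAT was in 3.68% against 0.885%, and ATTGAC in 5.40% against 3.03% of the other pairs without a core. The split by E-box was chosen after the sequences were seen.

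Pair signal was higher in the members than in all other pairs by its median, and inside the set highest in those with a core. The pair signal used here is the lower of the authors' signals of the plus and the minus border, in their own scale, which the files do not define. Its median was 0.689 in the members (middle 50% from 0.442 to 1.16, highest 11.2) and 0.519 in all other pairs. Pairs 28 to 30 bp apart had a median of 0.634, near that of the members, and the highest pair of the list, at 166, was one of these. Inside the set it was 0.888 for core members, 0.681 for E-box members and 0.540 for members with neither. Members with 1 ATCGAT had a median of 0.973 and those with 1 ATTGAT 0.851. Plus and minus signals were balanced by their median log2 ratio of -0.02, the same as in all other pairs. They were within 2-fold in 72.0% of members, 68.0% of core members and 75.3% of all other pairs. Members were 8.42% of all pairs in the lowest of 10 equal classes of pair signal and 28.3% in the highest. These values come from the list that chose the members and carry no test, and no value per library was given.

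The share of members with a core climbed with signal, from 25.3% (20.9 to 30.2) in the lowest of 10 equal classes to 80.7% (76.1 to 84.6) in the highest. At 25 bp exactly, 187 of 210 members in that highest range had a core (89.0%, 84.1 to 92.6). In other pairs the same share went from 8.26% (7.21 to 9.45) in their lowest class to 18.4% (16.9 to 20.1) in their highest. The E-box share stayed between 4.52% and 9.04% over the classes of the members.

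**Figure D3:**
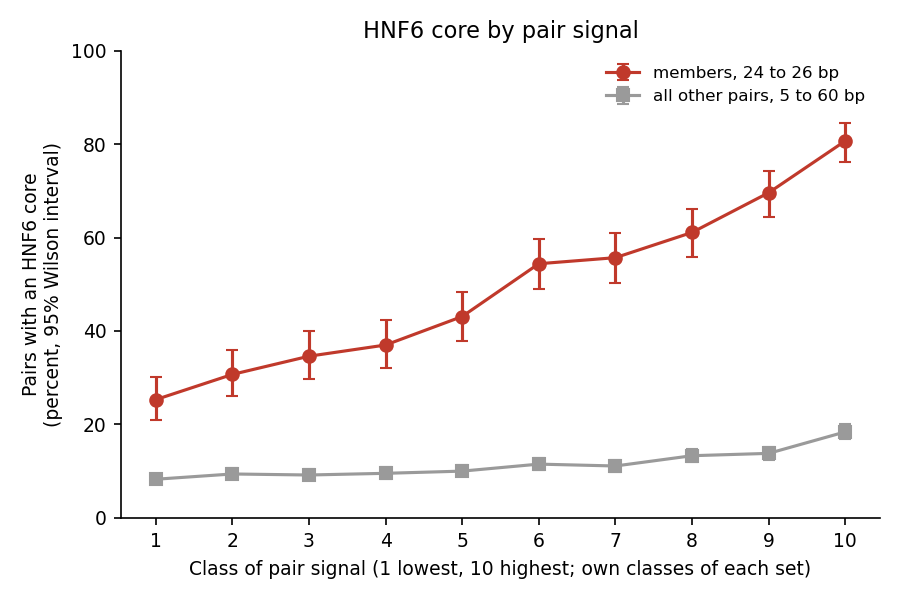
Percent of pairs with an HNF6 core (vertical axis, bars are 95% Wilson intervals) in each of 10 equal classes by pair signal (horizontal axis, 1 lowest, 10 highest). Red circles, members, which run from 25.3% to 80.7%; grey squares, all other pairs in their own 10 classes, which run from 8.26% to 18.4%.

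Of the 15 members with the highest pair signal, 13 held a core and 2, near Nr1d1 and Gys2, an E-box and no core. The core members near Ppara and Mtss1, whose sequences are shown above, also held CACGTG. Distances are to the nearest annotated start of the gene, which need not be its main one, and places are those of any protein-coding gene. The highest was near Ppara, the nuclear receptor that switches on fatty acid oxidation in fasting, at chr15:85601816-85601841, 816 bp upstream of a start, with border signals of 14 (plus) and 11.2 (minus). The next, near Mtss1, which encodes an actin-binding scaffold, lay in an intron at chr15:58875524-58875549, with signals of 11.5 and 10.5. Near Ndrg1, a stress-responsive gene, the member at chr15:66845277-66845301 was intergenic, 44.1 kb upstream of a start, with 9.93 and 9.45. In these 3 the signals of the plus and minus borders lay close together.

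The sialyltransferase gene St6gal1, whose product caps the glycans of secreted liver proteins, had a member at chr16:23294439-23294465, in an intron 3909 bp downstream of a start, with signals of 10.6 and 9.25. Cbs encodes cystathionine beta-synthase of the transsulfuration pathway. Its member at chr17:31773654-31773679, 69 bp downstream of a start, had 8.94 and 17.1, the most uneven of those described in this group. Adcy1, an adenylyl cyclase gene, had 8.15 and 12.5 at chr11:7052595-7052620, in an intron. The homeobox gene Hlx was the nearest gene to a member 127 kb downstream of it, at chr1:186429798-186429823, with 10.7 and 7.93. Ormdl3, whose product restrains sphingolipid synthesis, had 7.23 and 12 at chr11:98452176-98452201, 3506 bp upstream of a start.

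The remaining 5 had pair signals of 6.47 to 7.13. They lay near Nr1i2, the xenobiotic receptor PXR (chr16:38279888-38279912, signals 7.13 and 11.5), and Scarb1, the receptor for high-density lipoprotein (chr5:125766649-125766674, 6.82 and 8.67, 386 bp downstream of a start). The others were near the sialyltransferase gene St3gal4 (chr9:34935343-34935368, 13.8 and 6.70), the nucleotidase gene Nt5c2 (chr19:47045621-47045646, 6.58 and 10.8) and the predicted gene Gm6657, 210 kb away (chr12:79087940-79087965, 6.47 and 12.3). All 13 core members among the 15 lacked an eWAT or brain peak centre within 100 bp.

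**Figure D4:**
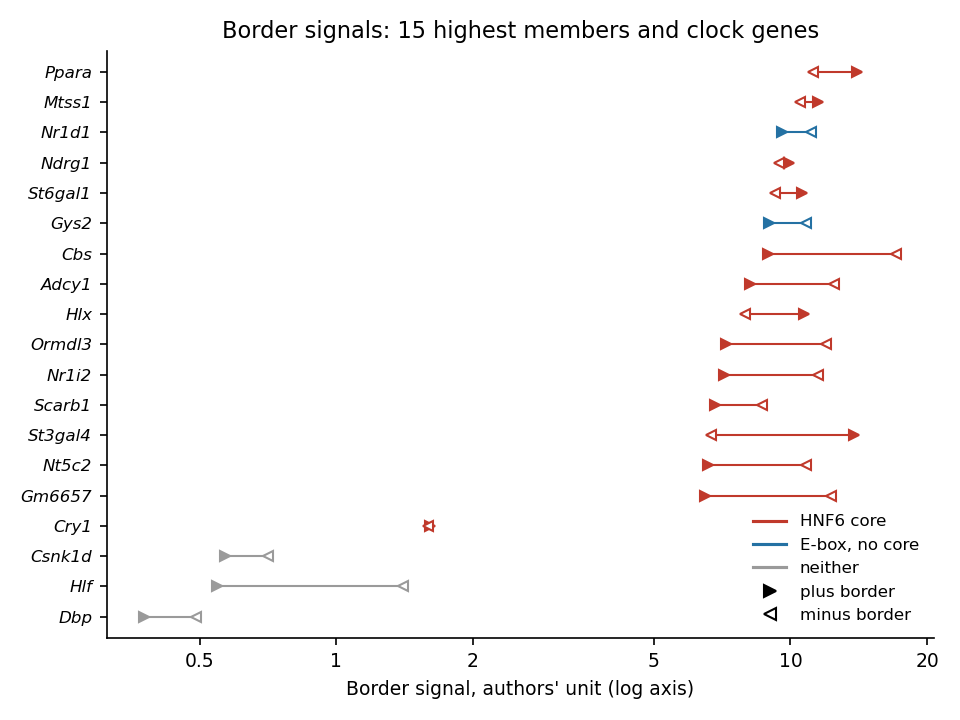
Signals of the plus border (filled, pointing right) and minus border (open, pointing left) in the authors' unit on a log axis, for the 15 members with the highest pair signal and the highest member near each clock gene; red, HNF6 core, blue, E-box without core, grey, neither. The upper rows run from Ppara (14 and 11.2) to Gm6657 (6.47 and 12.3), and of the clock genes only Nr1d1 stands among them.

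A small number of clock genes had a member, 1 of them with a core. Of the 22 genes of the clock list, 5 had a member within 10 kb of a start (22.7%), against 7.22% of all 22350 protein-coding genes. Nearly all of them, 21, had a pair of some spacing from 5 to 60 bp there, and among genes with any pair the shares with a member were 23.8% (10.6 to 45.1) for the clock list and 20.6% (19.7 to 21.5) for all genes. Only Cry1, which encodes a repressor of CLOCK and BMAL1, had a member with a core, at chr10:84647017-84647042, 770 bp downstream of a start, with signals of 1.61 and 1.59. Among genes with any pair, a core member was near 4.76% (0.846 to 22.7) of the clock list and 8.01% (7.43 to 8.63) of all genes. The Nr1d1 member, in an intron at chr11:98635178-98635204 and 1362 bp downstream of a start, had 9.56 and 11.1. It coincided with the eWAT peak of rank 4 and the brain peak of rank 7 by the authors' score (equal scores share a rank). The other 3 were weak: Csnk1d, a kinase that acts on PER proteins, had 0.568 and 0.707 (chr11:120853269-120853295), Hlf 0.545 and 1.40 (chr11:90234145-90234170) and Dbp 0.378 and 0.491 (chr7:52970691-52970715). A pair 28 to 30 bp apart was within 10 kb of 9 of the 21 clock genes with any pair (42.9%, 24.5 to 63.5), and of 15.6% (14.8 to 16.4) of all genes with any pair.

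Members with a core lay mostly away from promoters. Of all members, 15.9% (14.7 to 17.2) were within 1 kb of a start, 2.47% in exons, 40.1% in introns and 41.5% intergenic, against a background of 22.9% (22.3 to 23.4) of other pairs within 1 kb of a start. The share was 7.10% (5.95 to 8.45) in core members and 24.4% (22.4 to 26.5) in members without a core, a difference of -17.3 points (-19.7 to -14.9). In E-box members it was 32.9% (27 to 39.3). The median distance to a start was 19336 bp for core members, 5136 bp for E-box members and 10294 bp for members with neither, and 9758 bp for all other pairs. Members without a core and other pairs without a core differed by -0.285 points (-2.36 to 1.90) in the share near starts. Other pairs with a core were near a start in 8.95%, from which core members differed by -1.85 points (-3.48 to -0.160). Seen the other way, 22% (18.7 to 25.7) of members near a start held a core, 53.2% (50.5 to 55.9) of those in introns and 55.5% (52.9 to 58.2) of the intergenic ones. In other pairs these 3 shares were 4.48%, 13% and 14.4%.

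Core members almost never coincided with a Rev-erbα peak of fat or brain. An eWAT peak centre was within 100 bp of 3.28% (2.73 to 3.95) of all members, against a background of 5.63% (5.34 to 5.94) of other pairs. For brain peaks the share was 3.53% (2.95 to 4.21) against 6.13% (5.83 to 6.45). Of the core members, 8 (0.490%, 0.248 to 0.963) were near an eWAT peak and 9 (0.551%, 0.290 to 1.04) near a brain peak. In members without a core the shares were 5.99% (4.96 to 7.23) and 6.41% (5.34 to 7.68), so the differences of core members from them were -5.50 points (-6.76 to -4.36) and -5.86 points (-7.16 to -4.68). No core member was near peaks of both lists (0 of 1634, which allows a share of up to 0.184%). Such places were rare in general: 0.982% of all other pairs, and 1 of 2658 other pairs with a core (0.0376%). Away from promoters, the core members' shares were 0.527% and 0.461%, and their differences from members without a core -5.91 points (-7.41 to -4.59) and -2.52 points (-3.63 to -1.58). Other pairs with a core had 1.09% (0.761 to 1.56) near an eWAT peak and 0.865% (0.577 to 1.30) near a brain peak, from which core members differed by -0.601 points (-1.13 to -0.0241) and -0.315 points (-0.817 to 0.256). Low sharing accompanied the core at other spacings as well.

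E-box members had higher shares. Of these 222 members, 14.4% (10.4 to 19.6) were near an eWAT peak and 13.5% (9.63 to 18.6) near a brain peak, 9.70 points (5.50 to 15) and 8.18 points (4.10 to 13.4) above members with neither motif. Away from promoters the eWAT share was 15.4% against 5.24% in members with neither motif, a difference of 10.2 points (5.05 to 17). The brain share there was 5.37% against 2.67%, a difference of 2.70 points whose interval (-0.148 to 7.63) includes 0. E-box pairs at other spacings had 13.8% and 13.1% near these peaks. Base composition moved with these subsets: the median GC content was 40.4% in core members, 56.5% in E-box members and 51.1% in those with neither, and its part in the differences was not tested. The peak lists come from other libraries with their own depth, which is unknown, and a place without a listed peak is not shown to be unbound.

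**Figure D5:**
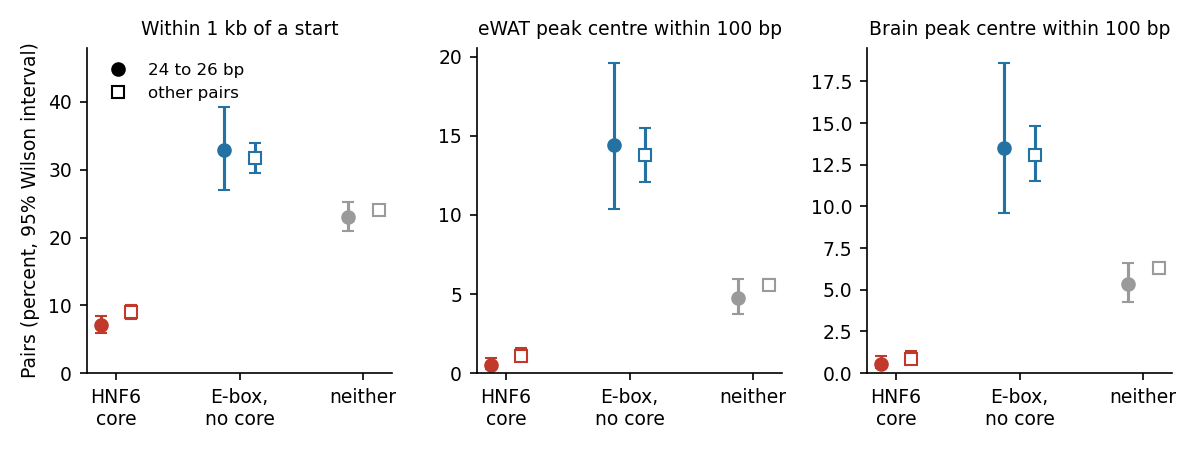
Percent of pairs (vertical axes, different scales, bars are 95% Wilson intervals) within 1 kb of a transcription start, near an eWAT peak centre and near a brain peak centre, for pairs with an HNF6 core (red), with an E-box and no core (blue) and with neither (grey); filled circles are the members, open squares the other pairs. Core members are at 7.10%, 0.490% and 0.551%, E-box members at 32.9%, 14.4% and 13.5%.

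In all, 19 members were near peaks of both eWAT and brain, 9 of them with an E-box and no core and 10 with neither motif. The 19 were 0.572% (0.367 to 0.892) of members, against 0.982% (0.863 to 1.12) of all other pairs. In E-box members the share was 4.05% (2.15 to 7.52), near the 3.42% (2.63 to 4.44) of E-box pairs at other spacings. The highest of the 19 in pair signal was the Nr1d1 member. The next was near Por, which encodes the electron donor of microsomal P450 enzymes, at chr5:136150840-136150864, 397 bp downstream of a start, with border signals of 4.79 and 4.64 and peaks of rank 36 in eWAT and 290 in brain. Among those within 1 kb of a start, Ypel5 and Hif1a, which encodes an oxygen-regulated transcription factor subunit, followed with pair signals of 2.94 and 1.93. Both genes were picked after their values were seen.

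Genes of liver function had members near them in a larger share than all genes did, and the same was true of pairs of any spacing. In 6 lists of hepatocyte genes together, 39 of 128 genes (30.5%) had a member within 10 kb of a start, against the background of 7.22% of all genes, and 20 (15.6%) had 1 with a core, against 2.81%. However, 93.0% of the listed genes and 35% of all genes had a pair of some spacing from 5 to 60 bp there. Among genes with any pair, 32.8% (25 to 41.6) of the listed and 20.6% (19.7 to 21.5) of all genes had a member, and 25.2% (18.3 to 33.7) and 15.6% (14.8 to 16.4) had a pair 28 to 30 bp apart. Of 3 lists for other liver cells (bile duct, Kupffer and stellate cells, 5 genes each) and 12 neuronal genes, 0 genes had a member, but only 1 bile duct gene and 1 stellate gene had a pair of any spacing. Of 5 endothelial genes 1 had (Kdr, pair signal 0.191), and of 12 housekeeping genes 1 had (B2m), with 3 and 8 genes of these lists having any pair.

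Transcription factors of the hepatocyte lineage had 4 of 24 genes with a member, and all 4 had a member with a core. Among the 22 of them with any pair, this was 18.2% (7.31 to 38.5), near the 20.6% of all genes with any pair. Of all genes with any pair, 8.01% (7.43 to 8.63) had a core member, a share inside that wide interval. Besides Ppara the 4 genes were Foxa3, a pioneer factor gene (chr7:19601543-19601568, intron, signals 8.86 and 2.67), Gata4 (chr14:63865013-63865039, 918 bp upstream of a start, 2.28 and 1.12) and the HNF6 paralogue gene Onecut2 (chr18:64505549-64505573, 5520 bp downstream of a start, 0.979 and 1.49). Onecut1 itself had no member within 10 kb of a start. In the list for the NCoR and HDAC3 complex, Ncor1 had a member with a pair signal of 0.648 and no core.

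Of 16 genes of glucose metabolism, all with a pair of some spacing, 8 had a member, 4 with a core. The shares were 50% (28 to 72) and 25% (10.2 to 49.5), against 20.6% and 8.01% of all genes with any pair. Gys2, the liver glycogen synthase gene, had signals of 8.96 and 10.8 (chr6:142419795-142419821, intron, 1821 bp downstream of a start). Its E-box began 24 bases from the plus border and so crossed the minus border, unlike the central E-boxes above. Ppp1r3c, which encodes a subunit that targets a phosphatase to glycogen, had 4.76 and 3.57 around a CACGTG (chr19:36806040-36806066, 5090 bp downstream of a start). Pygl, the liver glycogen phosphorylase gene, had 3.98 and 1.71 with a core (chr12:71334867-71334892, 2404 bp upstream of a start), and Pck1, the gluconeogenic gene for PEP carboxykinase, 1.44 and 2.89 with an E-box (chr2:172985871-172985897, 7301 bp downstream). The 3 genes of glycogen turnover named here thus covered the range from 1.71 to 8.96 in pair signal.

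Of 36 genes of lipid metabolism, 32 had any pair, 10 had a member and 6 a core member, among them Acly, Insig2, Agpat2, Thrsp and Fads2. Among the 32, the shares were 31.2% (18 to 48.6) and 18.8% (8.89 to 35.3), against 20.6% and 8.01% of all genes with any pair. The interval of the member share includes the 20.6% of all genes. A pair 28 to 30 bp apart was also near 31.2% of the 32, against 15.6% of all genes with any pair. Insig2, which holds the sterol sensor SCAP in the endoplasmic reticulum, had signals of 3.24 and 3.39 (chr1:123232602-123232627, 3448 bp upstream of a start). Agpat2, an acyltransferase gene of phospholipid and triglyceride synthesis, had 2.16 and 6.32 (chr2:26456308-26456333, 2916 bp downstream of a start). The single core began 11 bases from the plus border at Insig2 and 9 bases from it at Agpat2, the usual places.

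Of 17 bile acid and P450 genes, 15 had any pair and 7 a member, 4 with a core. Among the 15, the shares were 46.7% (24.8 to 69.9) and 26.7% (10.9 to 52.0), against 20.6% and 8.01% of all genes with any pair. Cyp7a1, the rate-limiting enzyme of bile acid synthesis, had signals of 2.81 and 3.03 with neither motif, at chr4:6202970-6202994, 202 bp upstream of a start. Slc10a1, the sodium-dependent bile acid importer, had 2.64 and 4.21 with 2 cores (chr12:82077132-82077157, 8173 bp upstream of a start), and Abcc2, a canalicular exporter, 1.41 and 1.75 with an E-box (chr19:43887935-43887960, 2935 bp downstream of a start). Of 22 plasma protein genes, all with any pair, 8 had a member, F9 and Ambp with a core. The shares were 36.4% (19.7 to 57.0) with a member and 9.09% (2.53 to 27.8) with a core member, the latter near the 8.01% of all genes. Ambp, which encodes a protease inhibitor and a lipocalin, had 1.85 and 2.30 around a core 60 bp upstream of a start (chr4:62815254-62815280). Fgb and Hp, for fibrinogen beta and haptoglobin, had pair signals of 1.05 and 0.945 and neither motif. Genes of the urea cycle and amino acid breakdown had 2 of 13 with a member and no core, and 12 with any pair. Of those 12, 16.7% (4.70 to 44.8) had a member, near the 20.6% of all genes with any pair.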

How the data were processed

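Coordinates are mm9, per the labels. The submitters' processing notes name Bowtie 1.1.1 for ChIP-exo, Bowtie 0.12.8 for ChIP-seq and HOMER with no version; the border caller, its settings and whether libraries were pooled were not stated (not given in the sources used here). Per the file headers, each deposited border has a signal and a p-value, and the authors' peak lists give each peak a score; their scales are not defined and the depth is unknown. The border list held 245360 borders, 245086 of them on the chromosomes used.

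Pairs, distances and motifs were computed with Python 3.11.15, numpy 2.4.6, pandas 2.3.3 and pysam 0.24.0 on the NCBIM37 (mm9) sequence and GENCODE vM1 genes (22350 protein-coding genes, 70018 starts), and the functions were checked on simulated borders. All 200 list symbols matched, 2 by an older symbol from RefSeq. Members, gene lists and motifs were chosen with earlier results of these data known. No p-value was computed, since each group had 1 list and no value per replicate. The named members were the 15 highest by pair signal, the highest near each clock gene, and up to 4 per other list (43 in all). Not all of them are described, and some are not reported here. Sequences were shown for the 8 highest of these with a core, the 4 highest without and the clock genes. Alternatives changed the spacing limits, pairing, border thresholds, windows and distances.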

Additional observations from a re-analysis of the deposited data

How the results depend on the processing

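No paired analysis was possible because each group had 1 list with no replicate columns, and for the same reason no library could be left out. With 25 bp alone, the core share was 62.8%, the share near starts 12.9%, near eWAT peaks 2.50%, near brain peaks 1.98%, genes with a member 3.40% and listed genes 24 (of 48). With 23 to 27 bp the first 5 were 40.6%, 17.9%, 4.13%, 4.22% and 10.2%. With both borders at p of 0.01 or below, 251 members were left, and the values were 70.5%, 7.97%, 1.20%, 0.797%, 0.358% and 3. Mutual pairs gave a core share of 51.5% and 6.48% of genes. With both borders above the median signal, the core share was 57.0%, the share near starts 13.8% and genes 5.05%. The 7-letter core gave 31.5%. Starts within 500 or 2000 bp gave 12.4% and 21.1%. Peaks within 50 or 200 bp gave 2.59% and 4.01% (eWAT) and 2.23% and 4.49% (brain). Genes within 1 or 50 kb gave 2.49% and 20.7%, and listed genes 18 and 108. These changes follow from other members or other distances. The commonest place of the core, 9 bases from the border, was the same in all 7 alternatives run, and removing neighbouring members moved no share outside its interval (no members were identical). In core members the eWAT and brain shares away from promoters, chosen after seeing the data, also stayed within theirs, as did the eWAT share of E-box members, while their brain share was 5.37% there against 13.5% overall. Of 62 alternative values, 29 were within the interval (or 1.5-fold for counts) and 33 were not, none with a changed direction, since shares have none. Depth is unknown, so no share can be corrected for it, and the lists hold only borders and peaks above the authors' limits.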

Other observations

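Some genes were nearest to several members, and those named here were picked after their values were seen. In all, 2550 genes were nearest to at least 1 member, 1970 of them to 1 and 135 to 3 or more. Abcb4, the canalicular phospholipid transporter gene, had 4 members within 44.1 kb of its starts, all with a core, with pair signals of 3.11, 0.755, 0.945 and 1.94. All lay in introns of a protein-coding gene, which need not be Abcb4. The highest, at 3.11, was 44.1 kb upstream of its nearest Abcb4 start. Ptprg, a receptor phosphatase gene, had 5, all with a core, with pair signals of 0.393 to 1.43. These 5 lay 15.5 to 205 kb from its starts. Onecut1, the gene of HNF6, was the nearest gene to 4 intergenic members 68.4 to 205 kb upstream of its starts, and 3 of them held a core (pair signals 1.91, 1.83 and 1.20). Rora, which encodes a receptor that binds the same element as Rev-erbα, was nearest to 4 members, 3 with a core, the highest at 2.86. These members lay 23.8 to 238 kb from its starts. The largest number was 6, at Map3k1 and at Rreb1, where 2 and 1 held a core, and Il1r1 and Myc had 5 each with 0 cores. The farthest of these members lay 183254 bp from a start at Map3k1, 179817 bp at Rreb1, 68820 bp at Il1r1 and 358660 bp at Myc. Being nearest thus did not mean being close.

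Around the members, in 100 bp to each side, a further HNF6 core was found in 17.9% (16.1 to 19.8) of core members and 9.20% (8.83 to 9.57) of other pairs. The C/EBP motif was there in 16.0% (14.3 to 17.8) of core members and 12.4% (11.9 to 12.8) of other pairs, and AGGTCA in 23.2% (21.2 to 25.3) and 21.9% (21.4 to 22.4). Members per 10 Mb were highest on chromosome 19 (22.7) and lowest on chromosome X (1.98, 33 members). Other pairs were not counted by chromosome, so whether this holds for the whole border list was not tested. At 22, 23, 27 and 34 bp, single ATTGAT cores most often kept 11 bases to the 3′ border, in 19 of 54, 28 of 72, 29 of 61 and 15 of 49 pairs. A distance of 9 bases to the 5′ border was kept in 16, 14, 7 and 9 of these, so at 22 bp the counts were close.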
